A study of Mus musculus with 52 samples.

Results

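Interferon-stimulated antiviral genes were followed in bulk RNA-seq of mouse pancreatic tumors that had received a STING agonist, an agonistic antibody to the lymphotoxin β receptor (LTβR), or both. The set was a list of 42 gene symbols matched by name, and all 42 were found among the 27525 genes of the deposited table. KPC tumor cells, a mouse pancreatic tumor line, had been grown under the skin of male C57BL/6NHsd mice aged 8 to 10 weeks with an intact immune system, to about 100 mm3 before treatment. Of 4 groups of 8 tumors, the first was untreated, the second received 2 µg of ADU-S100, a cGAMP analog, injected once into the tumor, the third received 4 doses of 100 µg of the anti-LTβR antibody into the peritoneum until day 10, and the combination group received both agents on the same schedules. All 32 tumors were collected on day 14 and sequenced one by one. Every tumor thus came from injected KPC cells, the control tumors received no vehicle or isotype antibody that the sources name, and day 14 was 14 days after the only dose of ADU-S100. A further 20 libraries of another experiment entered no comparison.

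STING is the endoplasmic reticulum receptor for cGAMP, the messenger that the DNA sensor cGAS makes. It activates the kinase TBK1 and the transcription factor IRF3, which switch on the Ifnb1 gene, and secreted interferon then acts on the receptor IFNAR of the same and neighbouring cells. There, a complex that includes STAT2 and IRF9 binds the interferon-stimulated response element (ISRE) in the promoters of the genes described here. Their products sense viral RNA, block its translation or replication, trap virions, or tag proteins with ISG15. Interferon γ acts through another site, the gamma-activated sequence (GAS), and drives a partly overlapping program. LTβR belongs to the TNF receptor family and signals through NF-κB in stromal, endothelial and myeloid cells.

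Promoter sequences are shown for 4 of these genes because they carry the DNA element through which type I interferon acts. The core of the ISRE was searched as the letters GAAA repeated after 2 bases of any kind, on both strands, in RefSeq promoters of the mouse build GRCm38.p6 that span 250 bases before and 50 bases after the annotated start. Promoters were found for 32 of the 42 genes, and 15 of the 32 (46.9%) held the core, against 3.99% of all 27025 gene symbols in that table. The GAS motif, TTCNNNGAA, was present in 7 of the 32 (21.9%) and in 9.55% of all symbols, and the matches to both motifs overlapped in Bst2 and Ifitm3. The 250 bases upstream of the start are given 5′ to 3′ on the strand of the gene, with each ISRE core in capitals, for Oas3 (chr5:120777660-120777909, minus strand), Ifit3 (chr19:34583279-34583528, plus strand), Ifitm2 (chr7:140955962-140956211, minus strand) and Ifi203 (chr1:173942493-173942742, minus strand). These positions are of GRCm38, and none was taken from the deposited tables.
Oas3: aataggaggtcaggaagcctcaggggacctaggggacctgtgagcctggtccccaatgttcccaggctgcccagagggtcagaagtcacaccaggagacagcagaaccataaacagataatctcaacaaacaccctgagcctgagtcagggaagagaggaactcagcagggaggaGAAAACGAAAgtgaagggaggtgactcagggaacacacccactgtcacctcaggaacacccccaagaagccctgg
Ifit3: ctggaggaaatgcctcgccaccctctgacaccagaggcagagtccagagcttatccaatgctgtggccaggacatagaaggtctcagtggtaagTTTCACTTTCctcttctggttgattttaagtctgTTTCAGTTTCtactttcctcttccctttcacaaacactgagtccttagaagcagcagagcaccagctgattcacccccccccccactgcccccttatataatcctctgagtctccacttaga
Ifitm2: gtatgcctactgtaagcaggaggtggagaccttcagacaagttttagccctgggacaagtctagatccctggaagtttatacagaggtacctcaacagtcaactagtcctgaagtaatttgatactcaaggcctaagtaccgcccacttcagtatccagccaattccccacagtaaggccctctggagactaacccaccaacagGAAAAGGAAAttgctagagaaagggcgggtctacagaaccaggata
Ifi203: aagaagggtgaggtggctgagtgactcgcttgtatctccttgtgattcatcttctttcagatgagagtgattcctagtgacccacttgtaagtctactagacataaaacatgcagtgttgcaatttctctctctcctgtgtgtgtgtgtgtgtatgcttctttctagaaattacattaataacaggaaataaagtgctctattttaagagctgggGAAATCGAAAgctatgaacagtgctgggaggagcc
Ifit3 held 2 cores on the opposite strand, 156 and 122 bases before its start at their first base, whereas the single core of Oas3 began 75, that of Ifitm2 46 and that of Ifi203 35 bases before the start. Isg15, whose product is the ubiquitin-like tag of the interferon response, held 3 overlapping cores between 78 and 57 bases before its start. A match is a description of these letters, and no binding was measured.

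**Figure D1:**
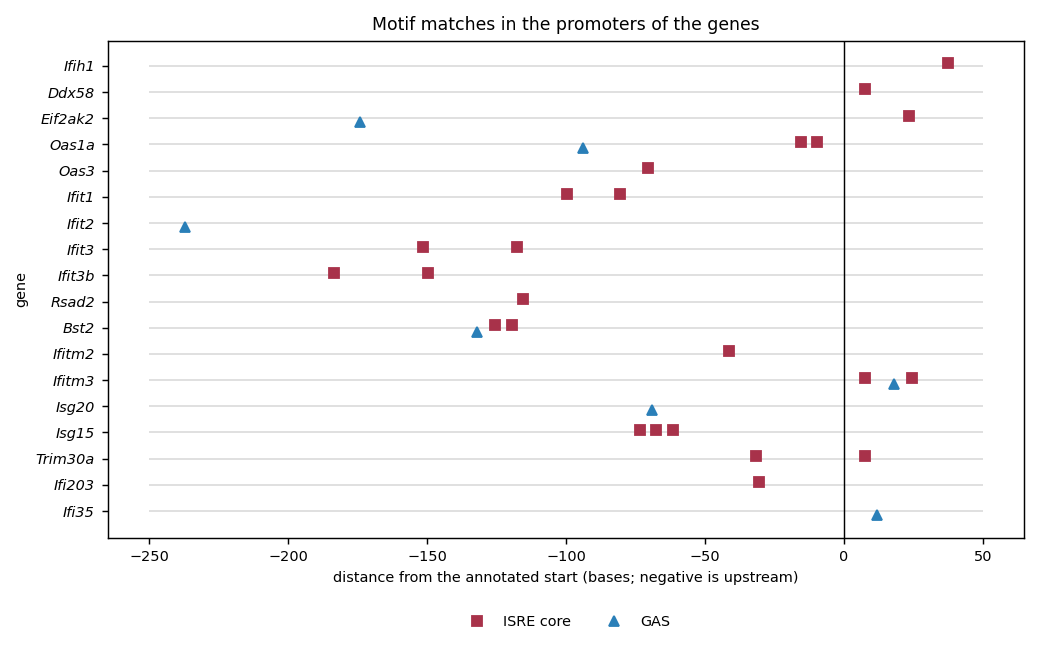
Positions of the ISRE core (squares) and of the GAS motif (triangles) on either strand in the promoters of the genes that held at least 1 of them. The horizontal axis is the distance in bases from the annotated start, and gray lines mark the window searched, so the squares of Isg15 cluster between 78 and 57 bases upstream and those of Ifih1, Ddx58, Eif2ak2 and Ifitm3, with 1 of the 2 of Trim30a, lie downstream of the start.

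The values are normalized counts, that is, reads per gene divided by a size factor per library. Reads recovered per library ran from 12762453 to 15591986, and 7 of the 32 libraries lay at or below 14000000. Differences are on the scale of log2(normalized count + 1) and are given with their standard error (SE). A gene was called at a Benjamini-Hochberg adjusted p below 0.05 in the limma test over all genes. All 42 genes passed the filter on low counts in every comparison. Within each group a few tumors were high, or low, for most of these genes at once. Untreated tumor 4 was the highest of its group for 23 of the 42 genes and untreated tumor 3 for 16, with median deviations from the group median of 0.45 and 0.43 on the log2 scale. In the other groups the highest tumor was ADU-S100 tumor 5 for 27 genes, anti-LTβR tumor 4 for 29 and combination tumor 2 for 38. The lowest tumors were untreated tumor 7 for 24 genes, ADU-S100 tumor 6 for 16, anti-LTβR tumor 8 for 30 and combination tumor 6 for 26, and the last 3 of these were among the 7 libraries with the fewest reads. The part of depth in these low values was not tested. Across tumors the SD of the log2 values of the 42 genes had a median of 0.29 without treatment, 0.24 with ADU-S100, 0.20 with anti-LTβR and 0.24 after both, whereas the 11071 genes of a similar mean count had medians of 0.17, 0.13, 0.12 and 0.14.

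**Figure D2:**
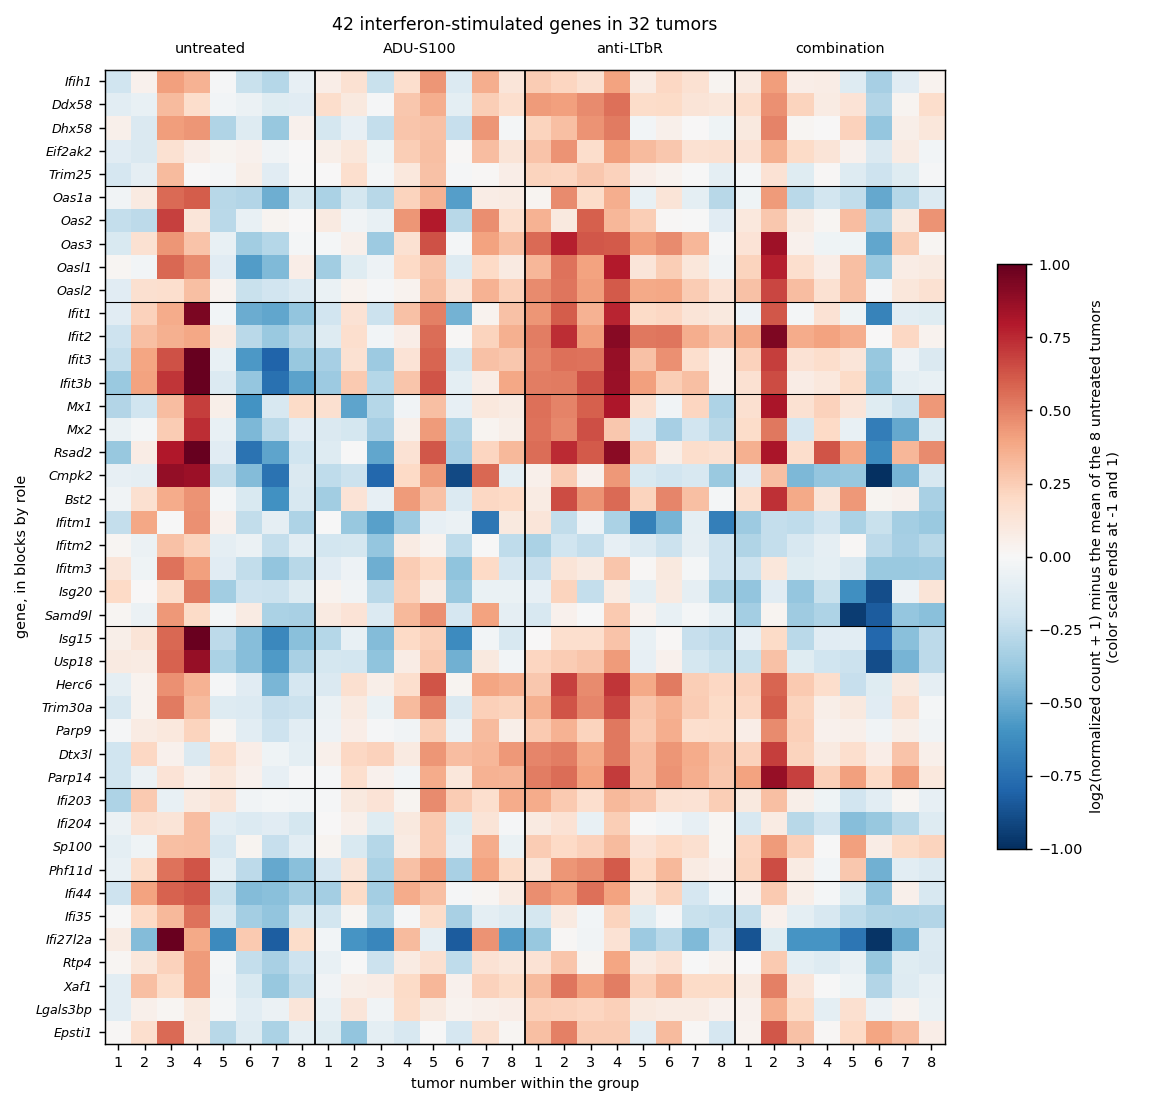
Heat map of the 42 genes (rows, in blocks by role) in the 32 tumors (columns, by group and tumor number), colored by log2(normalized count + 1) minus the mean of the 8 untreated tumors, with the color scale ending at -1 and 1. Untreated tumors 3 and 4, ADU-S100 tumor 5, anti-LTβR tumor 4 and combination tumor 2 are red for most genes.

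Interferon transcripts themselves set a number of libraries apart. Ifnl2 and Ifnl3, which encode interferon λ, had no reads in 20 libraries and were present together in 12, namely in tumors 2, 4 and 8 of the untreated and of the ADU-S100 group and in tumors 1, 3 and 7 of the anti-LTβR and of the combination group. In these 12 libraries Ifnl2 ranged from 12.8 to 42.6 and Ifnl3 from 9.62 to 28.6 normalized counts. Ifnb1, the gene for interferon β, ranged from 20.2 to 63.4 in the same 12 libraries and from 0 to 16.3 in the other 20. Each group held 3 such libraries. The median deviation of the 42 genes from the group median ran from -0.14 to 0.45 (median 0.04) in the 12 libraries and from -0.28 to 0.43 (median -0.03) in the 20. The cause of this pattern was not tested, and every comparison of the 42 genes was also made with the 20 libraries alone, 5 per group, and with the presence of Ifnl2 reads as a term in the fit of all libraries. With that term the counts of called genes given below stayed within 1.5 times. Against untreated tumors they were 0 after ADU-S100 (0% of all genes called), 13 after anti-LTβR (15.3%) and 7 after the combination (42.1%). The combination gave 8 against anti-LTβR (26.0%) and 3 against ADU-S100 (45.5%), anti-LTβR gave 4 against ADU-S100 (5.81%), and the interaction 7 (18.0%). Part of a legend of the study states that independent experiments were combined. The sample labels give all 32 tumors the same experiment name, and no label splits them further, so experiment itself could not enter a fit. Ifna4, an interferon α gene, was above 0 in 10 of the 12 libraries and in 1 of the 20, with at most 7.7 normalized counts, and Ifnk had at most 3.83 in any tumor.

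Cell types that make and answer interferon also differed between groups. The 6 macrophage and monocyte markers summed to 7094 to 12404 normalized counts in untreated tumors, 7439 to 9296 after ADU-S100, 8998 to 11273 after anti-LTβR and 10281 to 15184 after the combination. Of these markers 3 of 6 were higher after anti-LTβR and 4 of 6 after the combination than in untreated tumors. The 5 T cell markers were higher in 1 and in 5 cases, and their sums ranged from 347 to 904, 476 to 693, 618 to 922 and 724 to 1207 in the same order of groups. Endothelial markers were higher in 2 of 4 and 4 of 4 cases, with sums of 1124 to 1636, 883 to 1490.0, 1275 to 1763 and 2025 to 2848. Plasmacytoid dendritic cells, specialised producers of type I interferon, showed 1 of 4 markers higher in either comparison, with sums of 1900.3 to 2240, 2153 to 2326, 2141 to 2572 and 2117 to 2570.2. Of these 4 markers, 1 had a difference below 0 after anti-LTβR and 2 after the combination (medians 0.02 and -0.02). B cell markers were higher in 1 of 4 cases after anti-LTβR and in 3 of 4 after the combination, all 3 by at least 2-fold, with sums of 70.7 to 246, 44.5 to 184, 105 to 503 and 141 to 705. Plasma cell markers were higher in 1 of 3 and 3 of 3 cases, conventional dendritic cell markers in 2 of 5 and 4 of 5, NK cell markers in 1 of 4 and 1 of 4, and neutrophil markers in 0 of 4 and 1 of 4. Fibroblast markers were higher in 0 of 4 cases after anti-LTβR and in 4 of 4 after the combination, with sums of 57415 to 92270, 39227 to 111400, 45509 to 96753 and 98647 to 364220. Epithelial markers of the tumor cells moved the other way: 3 of 6 were lower after anti-LTβR and 3 of 6 after the combination, with sums of 15976 to 28967, 13257 to 21802, 13137 to 16187 and 6863 to 14682. Over all genes tested, 7.21% were higher and 8.1% lower after anti-LTβR, and 19.6% and 23.6% after the combination. No marker of these lists was called after ADU-S100 alone, and no listed marker of these cell types was at 0 throughout a group. In bulk tumors more cells of a type and more RNA per cell cannot be told apart, and the part of cell composition in the results below was not tested.

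After ADU-S100 alone, none of the 42 antiviral genes passed the test against untreated tumors on day 14. The count was 0 in either direction in limma, as it was for all 16613 genes tested (0% higher and 0% lower), with 2408 of those and 4 of the 42 at an unadjusted p below 0.05. The 4 were Dtx3l, Eif2ak2, Parp14 and Ifi203, all higher on average, by 0.26, 0.14, 0.17 and 0.19 on the log2 scale. Ifitm2 was not analysed on recovered reads, which left 41 of the genes for those tests. edgeR called none of the 41, and DESeq2 called Dtx3l, with a log2 difference of 0.26 ± 0.07 and an adjusted p of 0.0489, among 57 genes that it called in all. The median difference over the 42 was 0.05, against -0.004 over all genes tested. Over the 42 genes, the lowest bound of a 95% interval was -0.77, for Ifi27l2a, and the highest 0.61, for Ifit3b. For Isg15, the interval was -0.57 to 0.29, and for Ifit1 -0.36 to 0.46.

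After anti-LTβR alone, 13 of the 42 genes rose and none fell, while 7.21% of the 16691 genes tested were higher and 8.1% lower. The 13 were Ddx58, Eif2ak2, Oas3, Oasl2, Ifit2, Herc6, Trim30a, Parp9, Dtx3l, Parp14, Ifi203, Xaf1 and Lgals3bp. Their rises were small, from 0.15 for Lgals3bp to 0.54 for Ifit2 on the log2 scale, the latter being 1.43 times the untreated mean. Of the 42 genes, 36 had a difference above 0, and the median was 0.22, against 0.003 over all genes. By role, the rise was called for 5 of 7 genes of the ISG15, ubiquitin ligase and ADP-ribosylation group, 2 of 5 RNA sensors, 2 of 5 of the OAS family, 1 of 4 IFIT genes, 1 of 4 nuclear proteins, 2 of 7 other induced genes and 0 of 10 blocks on virus entry, replication and release. Leaving out each tumor in turn gave 11 to 15 called genes, all higher except without untreated tumor 7, when 12 were higher and 1 lower. Those fits called 9.40% to 17.4% of all genes. With the 20 libraries that lack Ifnl2 alone, 8 genes were called, all of them among the 13 and all higher, where 2.68% of all genes were called, and the median was 0.27.

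After the combination, 4 of the 42 genes rose and 5 fell, in a comparison where 19.6% of the 16909 genes tested were higher and 23.6% lower. Oasl2, Dtx3l, Parp14 and Sp100 rose, by 0.25, 0.23, 0.41 and 0.22 on the log2 scale. Ifitm1, Ifitm2, Samd9l, Ifi204 and Ifi27l2a fell, with differences of -0.29, -0.21, -0.44, -0.22 and -0.56. The median over the 42 was 0.07, against -0.02 over all genes, and 25 of the 42 differences were above 0. The count of 9 fell to 5 without a filter and to 4 with only the libraries above 14000000 reads. The fit of these deep libraries held fewer tumors, and its share of all genes called was not determined. The count fell to 0 with the 20 libraries that lack Ifnl2, where 21.6% of all genes were still called. The count was 4 without untreated tumor 1 or without combination tumor 1, 3, 5 or 7, 5 without untreated tumor 8, and 6 to 9 without any of the other tumors. These fits without 1 tumor called 38.4% to 43.0% of all genes.

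**Figure D3:**
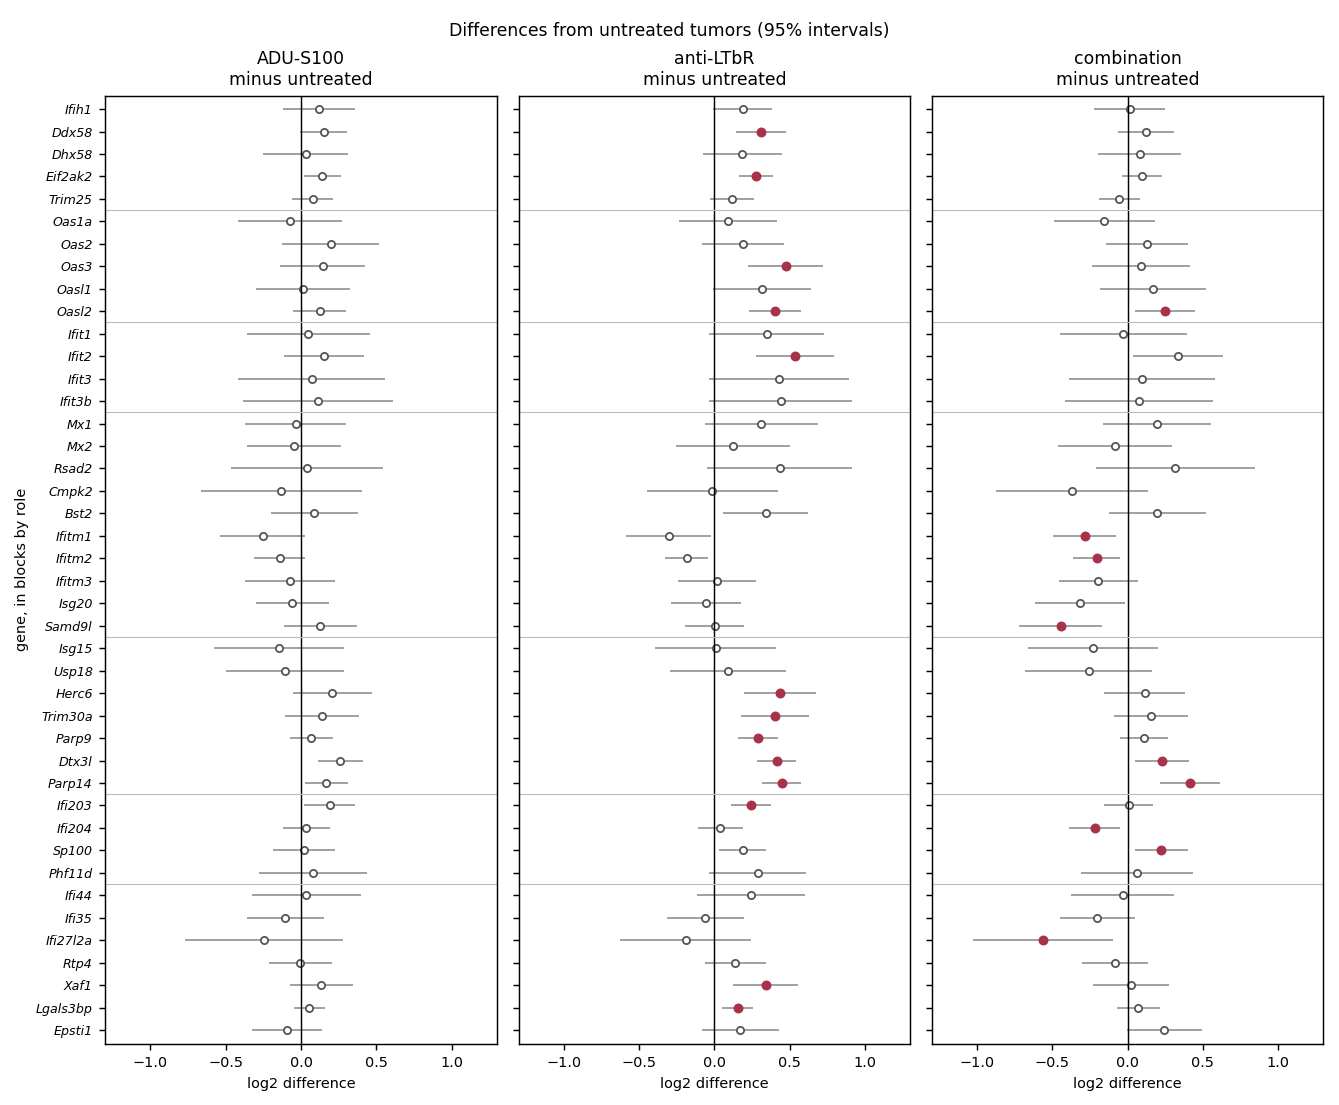
Differences of ADU-S100, anti-LTβR and combination tumors from untreated tumors for the 42 genes, as log2 difference with 95% interval (horizontal axis, n = 8 tumors per group); filled points passed an adjusted p of 0.05. No point is filled after ADU-S100, 13 are filled to the right of 0 after anti-LTβR, and after the combination 4 are filled to the right and 5 to the left.

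Compared with anti-LTβR alone, the combination gave lower values: 10 of the 42 genes were lower and none higher, where 11.3% of the 16932 genes tested were higher and 15.3% lower. The 10 were Eif2ak2, Trim25, Ifit3b, Samd9l, Herc6, Ifi203, Ifi204, Ifi27l2a, Rtp4 and Xaf1. A negative difference was found for 39 of the 42, with a median of -0.20 against -0.03 over all genes. The number of calls depended on single tumors, on the scaling and on the filter. edgeR with TMM or RLE scaling called 4 of the 41 genes it could test, and limma without a filter on low counts called 4. Combination tumor 2 was highest of its group for 38 of the 42 genes, so leaving it out lowers the group mean of those genes. Without it 27 genes were lower, where 29.5% of all genes were called. The count was 4 without anti-LTβR tumor 2 or 4 or combination tumor 5 or 6, 5 without combination tumor 7, and 6 without anti-LTβR tumor 5 or combination tumor 1, 3 or 4. All fits without 1 tumor called 20.3% to 29.5% of all genes. With only libraries above 14000000 reads 1 gene was called, in a fit of fewer tumors whose share of all genes called was not determined. With the 20 libraries that lack Ifnl2 none was called, where 10.6% of all genes were called, 37 of the 42 differences were below 0 and their median was -0.24. Markers of other cell types moved with this comparison: 4 of 4 fibroblast markers were higher, all by at least 2-fold (median 1.42), as were 4 of 4 endothelial, 2 of 5 T cell and 2 of 6 macrophage markers, whereas 3 of 6 epithelial markers were lower. Their part in the result was not tested.

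Against ADU-S100 alone, the combination raised 1 of the 42 genes, Epsti1, by 0.34, and lowered 2, Samd9l (-0.57) and Ifi204 (-0.26), with 20.2% of 16811 genes higher and 26% lower. A fit of all 4 groups at once called 6, TMM rescaling, edgeR with TMM or RLE and DESeq2 each called 5, and the 20 libraries that lack Ifnl2 left 1 call, a lower value, where 24.5% of all genes were called. Anti-LTβR against ADU-S100 gave 4 higher genes, Oasl2, Ifit2, Parp9 and Parp14, and none lower, where 3.38% of 16649 genes were higher and 3.04% lower. This count was 0 in a fit of all 4 groups at once and with the 20 libraries that lack Ifnl2, where 0.18% of all genes were called. Of the 50 cell type markers tested, 36 were higher and 3 lower in combination than in ADU-S100 tumors. In anti-LTβR relative to ADU-S100 tumors 13 of 50 were higher and 0 lower. The part of the markers in these results was not tested. No member reached a 2-fold difference in any of the 6 comparisons between groups. That size together with the adjusted p was met by 6.12% of all genes in combination against untreated, 1.04% in anti-LTβR against untreated, 0% in ADU-S100 against untreated, 2.11% in combination against anti-LTβR, 6.17% in combination against ADU-S100 and 0.601% in anti-LTβR against ADU-S100.

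Whether the combination departed from the sum of its parts was asked with the interaction of the agents over all 32 tumors. It is the difference between the effect of anti-LTβR with ADU-S100 and its effect without. The interaction was negative for 9 of the 42 genes and positive for none, where 7.33% of 17649 genes were positive and 11% negative. These were Ddx58, Eif2ak2, Trim25, Samd9l, Herc6, Dtx3l, Ifi203, Ifi204 and Xaf1, from -0.57 for Samd9l to -0.25 for Trim25 on the log2 scale. For 38 of the 42 the estimate was below 0, and the median was -0.25 against -0.01 over all genes. With only libraries above 14000000 reads 3 genes were called, in a fit of fewer tumors whose share of all genes called was not determined. With the 20 libraries that lack Ifnl2 1 was called, where 3.75% of all genes were, while edgeR with RLE scaling called 5. Fibroblast and endothelial markers had an interaction of the opposite sign, positive for 4 of 4 fibroblast markers, all at least 2-fold (median 1.67), and for 4 of 4 endothelial markers. Other lists were mixed, with estimates below 0 for 3 of 5 conventional dendritic, 2 of 4 plasmacytoid dendritic and 3 of 6 epithelial markers. Of all 51 markers, 12 were called positive and 0 negative. The part of the markers in the result was not tested. Leaving out combination tumor 5 gave 5 called genes, where 14.2% of all genes were called. Leaving out any other tumor gave 6 to 13, where 15.1% to 20.9% were.

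**Figure D4:**
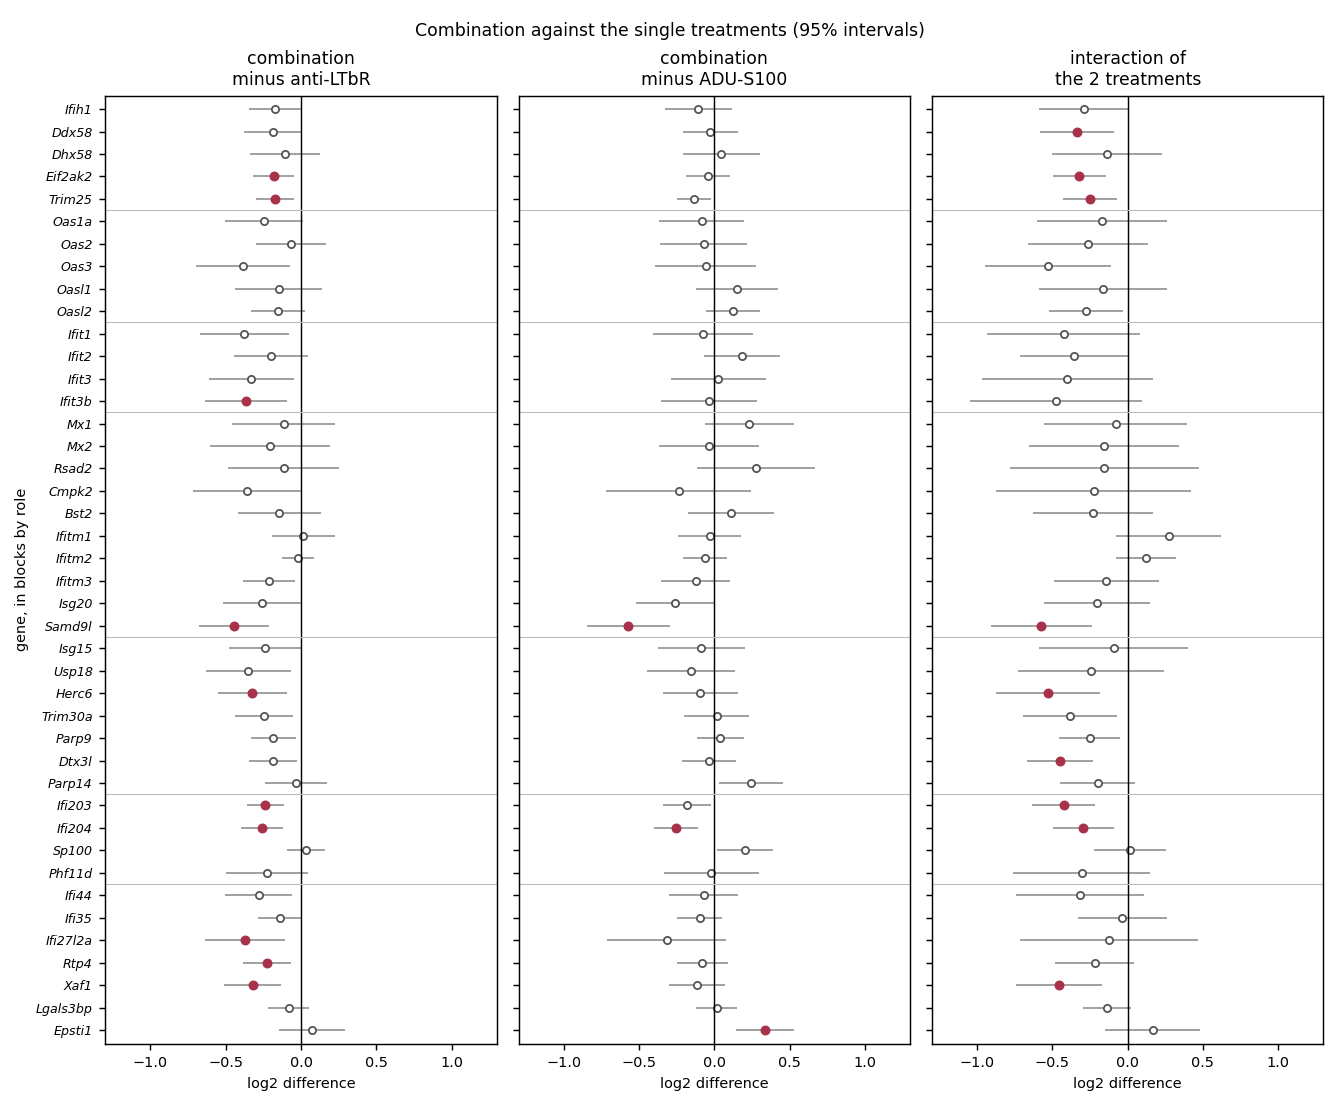
Differences of combination tumors from anti-LTβR and from ADU-S100 tumors, and the interaction of the treatments, for the 42 genes, as log2 difference with 95% interval (horizontal axis); filled points passed an adjusted p of 0.05. In the left panel 10 points are filled, all below 0, in the middle panel 1 above and 2 below, and in the right panel 9, all below 0.

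The RNA sensors open the antiviral response in the cytoplasm. Eif2ak2 (ENSMUSG00000024079) encodes PKR, the kinase that stops translation when it binds double-stranded RNA. Its lowest, median and highest normalized counts were 889, 990.4 and 1089 without treatment, 949, 1065 and 1212 with ADU-S100, 1088, 1187 and 1339.8 with anti-LTβR and 885, 1055 and 1255 after both. All but 1 of the 8 anti-LTβR tumors lay above every untreated tumor. The difference was 0.28 ± 0.05 after anti-LTβR (adjusted p = 0.00457) and 0.10 ± 0.06 after the combination (adjusted p = 0.223), and the interaction was -0.32 ± 0.09 (adjusted p = 0.0109). Ddx58 (ENSMUSG00000040296), which encodes RIG-I, ranged over 1148, 1191 and 1556 without treatment, 1163, 1404 and 1601 with ADU-S100, 1351, 1540.0 and 1832 with anti-LTβR and 1020.4, 1392 and 1710.0 after both. Of the anti-LTβR tumors 4 lay above every untreated tumor, and the rise there was 0.31 ± 0.08 (adjusted p = 0.018), with an interaction of -0.34 ± 0.12 (adjusted p = 0.0467). Ifih1 (ENSMUSG00000026896) encodes MDA5, the sensor of long double-stranded RNA, and was the least changed of this group after the combination. It had 590.1, 696 and 955 without treatment, 614, 792 and 975 with ADU-S100, 732, 815 and 949 with anti-LTβR and 569.7, 744 and 959.8 after both, with differences of 0.19 ± 0.09 and 0.01 ± 0.11 after anti-LTβR and the combination (adjusted p = 0.171 and 0.937). Groups overlapped for this gene in every comparison. Of the remaining 2, Dhx58 (LGP2) was not called anywhere, and Trim25, a ubiquitin ligase for RIG-I, was lower with both agents than with anti-LTβR alone (-0.17, adjusted p = 0.0412).

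The OAS family makes oligoadenylates that activate RNase L, and Oasl1 and Oasl2 encode OAS-like proteins. Oasl2 (ENSMUSG00000029561) was called after either treatment with the antibody. Its lowest, median and highest counts were 2939, 3348 and 4226 without treatment, 3277, 3621 and 4369 with ADU-S100, 3795, 4541 and 5240.0 with anti-LTβR and 3399, 4008 and 5446 after both. All 8 anti-LTβR and all 8 combination tumors exceeded the untreated median, and 6 and 3 of them, respectively, every untreated tumor. Means were 3459.7 ± 472 (SD, n = 8) in untreated, 4548 ± 462 in anti-LTβR and 4109 ± 617 in combination tumors, for differences of 0.40 ± 0.08 (adjusted p = 0.00665) and 0.25 ± 0.09 (adjusted p = 0.0437). Oas3 (ENSMUSG00000032661) had 586, 724 and 1013 without treatment, 582, 802 and 1160.5 with ADU-S100, 743, 1071 and 1279.5 with anti-LTβR and 522, 764 and 1348 after both. In the combination group its highest value, in tumor 2, stood far above the next, 886. Oas3 rose by 0.47 (SE 0.12, adjusted p = 0.0172) after anti-LTβR, and the combination differed from untreated tumors by 0.09 ± 0.15 (adjusted p = 0.681). Oasl1 (ENSMUSG00000041827) had 170.0, 251 and 373 without treatment, 197, 255 and 304 with ADU-S100, 245, 307 and 435 with anti-LTβR and 194, 275 and 431 after both, with differences of 0.32 ± 0.16 after anti-LTβR (adjusted p = 0.163) and 0.17 ± 0.17 after the combination (adjusted p = 0.437). Oas1a and Oas2 were not called in any comparison, with medians between 546 and 816 in the 4 groups.

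IFIT proteins bind foreign RNA or the translation machinery. Ifit2 (ENSMUSG00000045932) showed the largest difference of all 42 genes after anti-LTβR. Its lowest, median and highest counts were 769.8, 958 and 1305 without treatment, 914, 1081 and 1466 with ADU-S100, 1214, 1431 and 1873 with anti-LTβR and 999, 1284 and 1904 after both. Of the anti-LTβR tumors 6 of 8 lay above every untreated tumor, whereas 1 ADU-S100 and 2 combination tumors did. The difference from untreated tumors was 0.54 ± 0.12 after anti-LTβR (adjusted p = 0.011), 0.34 ± 0.14 after the combination (adjusted p = 0.0639) and 0.15 ± 0.13 after ADU-S100 (adjusted p = 0.552). Ifit1 (ENSMUSG00000034459) and Ifit3 (ENSMUSG00000074896) varied more between untreated tumors. Ifit3 had 1603, 2509.7 and 5728 without treatment, 2172, 3085 and 4180.0 with ADU-S100, 2861, 3881 and 5099 with anti-LTβR and 2149, 3058 and 4501 after both, the untreated maximum being tumor 4. Its difference after anti-LTβR was 0.43 ± 0.22 with a 95% interval of -0.04 to 0.89 (adjusted p = 0.182). Ifit1 had 783, 1069 and 2160.2 without treatment, 807, 1196 and 1592 with ADU-S100, 1203, 1359 and 1905 with anti-LTβR and 705, 1087 and 1729.7 after both. For Ifit1 no anti-LTβR tumor exceeded the highest untreated tumor, although all 8 lay above the untreated median, and the difference was 0.35 ± 0.18 (adjusted p = 0.184). Ifit3b, a close paralog of Ifit3 with which reads could be shared, was lower with both agents than with anti-LTβR alone (-0.37, adjusted p = 0.0462).

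Proteins that block entry, replication or release of viruses formed the largest group, with 10 genes. After the combination 3 of the 10 fell, a share near the 23.6% of all genes that were lower in that comparison. Samd9l (ENSMUSG00000047735), an interferon-induced restriction factor that also limits cell growth, was lower in the combination than in each other group. Its lowest, median and highest counts were 1815, 2271 and 3059.9 without treatment, 2018, 2456 and 3112 with ADU-S100, 2034, 2254 and 2730.3 with anti-LTβR and 1177, 1758 and 2314 after both. Of the combination tumors 6 of 8 lay below every untreated tumor, and the other 2, tumor 2 among them, lay within the untreated range. Means were 2301 ± 406 (SD, n = 8) in untreated and 1702 ± 351 in combination tumors. The differences were -0.44 ± 0.13 against untreated (adjusted p = 0.0114), -0.45 ± 0.11 against anti-LTβR (adjusted p = 0.008) and -0.57 ± 0.13 against ADU-S100 (adjusted p = 0.00189), with an interaction of -0.57 ± 0.16 (adjusted p = 0.0153). Ifitm1 (ENSMUSG00000025491) and Ifitm2 (ENSMUSG00000060591) encode membrane proteins that hinder fusion of virus with the cell. Ifitm1 had 487, 585 and 827 without treatment, 365, 520.0 and 645 with ADU-S100, 376, 497 and 656 with anti-LTβR and 467, 495 and 529.9 after both. No combination tumor exceeded the untreated median of Ifitm1, and the difference was -0.29 ± 0.10 (adjusted p = 0.0284). With anti-LTβR alone its estimate was -0.30 ± 0.13 (adjusted p = 0.127) and with ADU-S100 alone -0.26 ± 0.13 (adjusted p = 0.365). Ifitm2 had 4048, 4594 and 5849 without treatment, 3650.5, 4216 and 5057 with ADU-S100, 3829, 4149 and 4514 with anti-LTβR and 3794, 4018 and 4806 after both, 4 combination tumors lay below every untreated one, and the difference was -0.21 ± 0.07 (adjusted p = 0.031).

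Of this group the dynamin-like GTPase Mx2 (ENSMUSG00000023341) was the least changed after the combination. It had 92.7, 121 and 213 normalized counts without treatment, 101, 122 and 171 with ADU-S100, 101, 134 and 199 with anti-LTβR and 78.5, 118 and 184 after both, and a difference of -0.08 ± 0.18 (95% interval -0.46 to 0.30, adjusted p = 0.74). The other 6, Mx1, Rsad2 (viperin), Cmpk2, Bst2 (tetherin, which holds budding virions at the cell surface), Ifitm3 and Isg20, were called in no comparison. The widest intervals among them after the combination were those of Rsad2, -0.21 to 0.85, and Cmpk2, -0.87 to 0.13.

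ISG15 is a ubiquitin-like protein that is attached to other proteins, and this group also holds ligases and the PARP enzymes that attach ADP-ribose. Isg15 itself was called nowhere. It ranged over 754, 1109 and 2345 without treatment, 764, 1092 and 1396 with ADU-S100, 984, 1186 and 1442 with anti-LTβR and 684, 1041 and 1347 after both, and its difference after the combination was -0.23 ± 0.20 (95% interval -0.66 to 0.20, adjusted p = 0.375). Parp14 (ENSMUSG00000034422), an ADP-ribosyltransferase, rose in both groups that received the antibody. It had 2438, 2832 and 3081 without treatment, 2739.6, 3083 and 3623 with ADU-S100, 3369, 3758 and 4554 with anti-LTβR and 3001, 3699 and 5108 after both. All 8 anti-LTβR and 7 of 8 combination tumors lay above every untreated tumor, and 4 of 8 ADU-S100 tumors did. Means were 2804 ± 212 (SD, n = 8), 3161 ± 367, 3827 ± 385 and 3779 ± 702, and the rises over untreated were 0.45 ± 0.06 after anti-LTβR (adjusted p = 0.000668) and 0.41 ± 0.09 after the combination (adjusted p = 0.00207). Dtx3l (ENSMUSG00000049502), the ubiquitin ligase that works in a complex with PARP9, had 2040.1, 2339 and 2706 without treatment, 2423, 2816 and 3183 with ADU-S100, 2835, 3112 and 3383 with anti-LTβR and 2423, 2677 and 3777 after both. Every anti-LTβR tumor and 6 of 8 ADU-S100 tumors, but only 4 of 8 combination tumors, exceeded the highest untreated tumor. Dtx3l rose by 0.41 (SE 0.06, adjusted p = 0.000902) after anti-LTβR and by 0.23 (SE 0.09, adjusted p = 0.042) after the combination, and its interaction was -0.45 ± 0.11 (adjusted p = 0.00423).

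Herc6 (ENSMUSG00000029798), the ligase that attaches ISG15 in the mouse, had 722, 955 and 1355 without treatment, 894, 1109 and 1533 with ADU-S100, 1142, 1329.9 and 1625 with anti-LTβR and 845, 1087 and 1483 after both. All 8 anti-LTβR tumors exceeded the untreated median and 4 the untreated maximum. It rose by 0.44 (SE 0.11, adjusted p = 0.0199) after anti-LTβR, was -0.32 ± 0.11 in the combination relative to anti-LTβR (adjusted p = 0.0353), and had an interaction of -0.53 ± 0.17 (adjusted p = 0.0279). Its difference between combination and untreated tumors was 0.11 ± 0.13 (adjusted p = 0.498). Parp9 and the ubiquitin ligase Trim30a rose after anti-LTβR, by 0.29 and 0.40 (adjusted p = 0.00881 and 0.022), and neither was called after the combination. Usp18, the protease that removes ISG15, was called nowhere, and its difference after the combination had a 95% interval of -0.68 to 0.16.

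**Figure D5:**
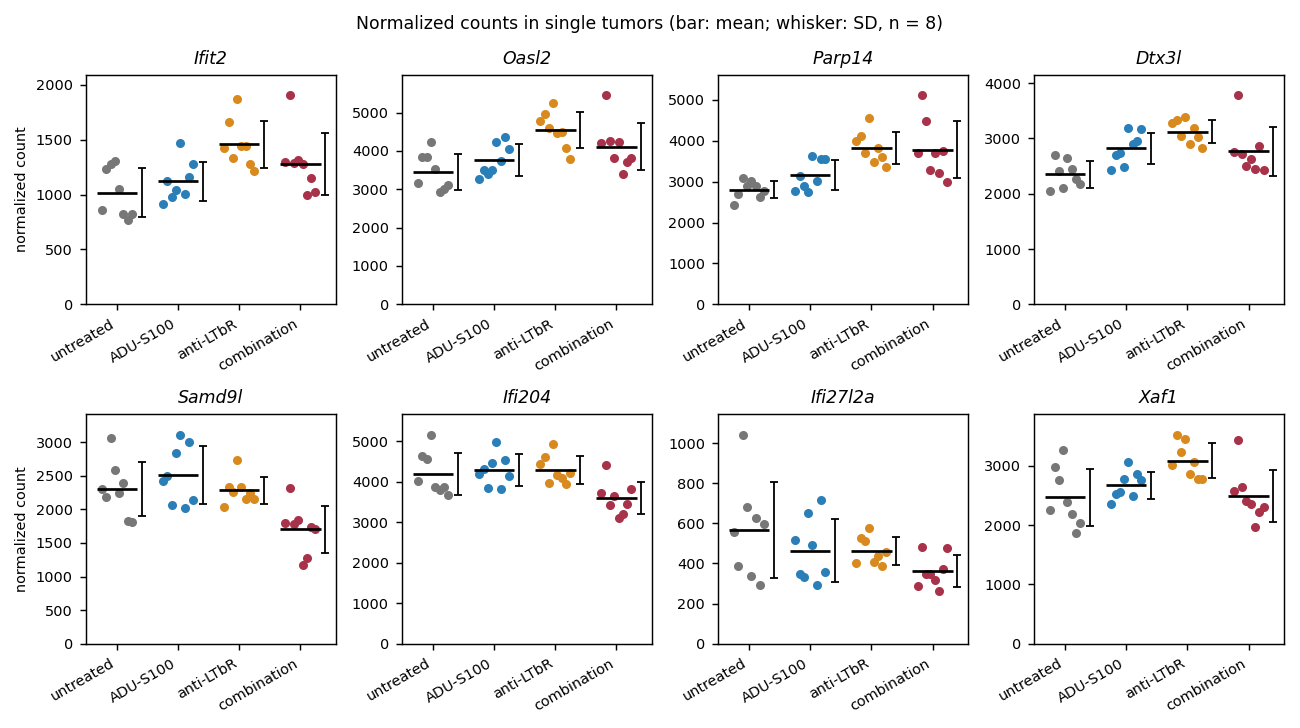
Normalized counts (vertical axes, starting at 0) of Ifit2, Oasl2, Parp14, Dtx3l, Samd9l, Ifi204, Ifi27l2a and Xaf1 in single tumors of the 4 groups, with the mean (bar) and SD (whisker, n = 8). For Parp14 and Dtx3l every anti-LTβR tumor lies above every untreated tumor, and for Samd9l 6 of 8 combination tumors lie below all of them.

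Nuclear proteins of the interferon response include the PYHIN family, which binds DNA. Ifi203 (ENSMUSG00000039997) had lowest, median and highest counts of 2373, 2893 and 3526 without treatment, 2915, 3274 and 4084 with ADU-S100, 3258, 3506 and 3799 with anti-LTβR and 2586, 2918 and 3629 after both. All 8 ADU-S100 and all 8 anti-LTβR tumors lay above the untreated median, compared with 4 of 8 combination tumors. The gene rose by 0.24 after anti-LTβR (SE 0.06, adjusted p = 0.0208), was lower with both agents than with anti-LTβR alone (-0.24 ± 0.06, adjusted p = 0.00865), and had an interaction of -0.43 ± 0.10 (adjusted p = 0.0044). Ifi204 (ENSMUSG00000073489), a DNA sensor that can act through STING, had 3688, 3944 and 5166 without treatment, 3828, 4254 and 4997 with ADU-S100, 3951, 4192 and 4938 with anti-LTβR and 3113, 3555 and 4407 after both. Of the combination tumors 5 lay below every untreated tumor. It was lower in the combination than in untreated (-0.22 ± 0.08, adjusted p = 0.0349), anti-LTβR (-0.26 ± 0.07, adjusted p = 0.0097) and ADU-S100 tumors (-0.26 ± 0.07, adjusted p = 0.0064). Genes of this family resemble each other, and reads could be shared between them. Sp100 (ENSMUSG00000026222), a component of nuclear bodies, had 981, 1097 and 1422 without treatment, 945, 1135 and 1489 with ADU-S100, 1168, 1320.0 and 1429 with anti-LTβR and 1148, 1341 and 1549 after both. All 8 combination tumors exceeded the untreated median of Sp100, with a rise of 0.22 (SE 0.08, adjusted p = 0.0414), and after anti-LTβR the difference was 0.19 ± 0.07 (adjusted p = 0.0871). Phf11d was called in no comparison.

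Of the remaining interferon-induced genes, Ifi27l2a (ENSMUSG00000079017), which encodes a small membrane protein, was lower after the combination. It had 295, 575 and 1042 without treatment, 294, 425 and 716 with ADU-S100, 386, 446 and 579 with anti-LTβR and 264, 348 and 482 after both. No combination tumor exceeded the untreated median, but 6 of 8 lay within the untreated range. The difference was -0.56 ± 0.22 against untreated (adjusted p = 0.049) and -0.37 ± 0.12 against anti-LTβR (adjusted p = 0.0376). Xaf1 (ENSMUSG00000040483), which promotes cell death, had 1869, 2318 and 3257 without treatment, 2361, 2658 and 3059.5 with ADU-S100, 2768, 3038 and 3523 with anti-LTβR and 1974, 2385 and 3433 after both. Every anti-LTβR and every ADU-S100 tumor lay above its untreated median. It rose by 0.34 after anti-LTβR (SE 0.10, adjusted p = 0.0341), differed by 0.02 ± 0.12 between combination and untreated tumors (adjusted p = 0.905), and had an interaction of -0.46 ± 0.14 (adjusted p = 0.0213). Epsti1 (ENSMUSG00000022014) had 309, 374 and 570.0 without treatment, 293, 358 and 431 with ADU-S100, 344, 459.9 and 547 with anti-LTβR and 389, 458 and 593 after both, and was the only gene higher in combination than in ADU-S100 tumors (0.34 ± 0.09, adjusted p = 0.00569). Lgals3bp, a secreted glycoprotein, rose by 0.15 after anti-LTβR (adjusted p = 0.0416), Rtp4 was lower with both agents than with anti-LTβR alone (-0.22, adjusted p = 0.0376), and Ifi44 and Ifi35 were called nowhere.

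The ISRE core was compared with these differences without a test. After anti-LTβR, 5 of the 15 genes with the core rose, as did 6 of the 17 whose promoter window lacked it and 2 of the 10 without a promoter entry, with median differences of 0.31, 0.19 and 0.16, where 7.21% of all genes were higher. In the combination relative to anti-LTβR, 3, 4 and 3 genes of these classes were lower, with medians of -0.24, -0.19 and -0.20, where 15.3% of all genes were lower. Oas3 and Ifi203, whose cores are printed above, were among the genes that rose after anti-LTβR, whereas Ifitm2 was among those that fell after the combination and Ifit3 was not called.

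Upstream of these genes, 28 of 32 listed symbols of ligands, receptors and signalling genes were found in the table and 23 of these could be tested between groups. After the combination 15 were higher and 1 lower, after anti-LTβR 9 were higher and 1 lower, and after ADU-S100 none was called (2 of 23 at an unadjusted p below 0.05, against 14.5% of all genes). Over all genes tested, 19.6% were higher and 23.6% lower after the combination, and 7.21% and 8.1% after anti-LTβR. Ifng, the gene for interferon γ, had lowest, median and highest normalized counts of 24.8, 33.3 and 68.2 without treatment, 28.3, 49.3 and 55.7 with ADU-S100, 55.4, 82.6 and 102 with anti-LTβR and 44.0, 110.5 and 161 after both. Untreated tumors had the lowest median and combination tumors the highest, with differences of 1.06 ± 0.22 after anti-LTβR (adjusted p = 0.00665) and 1.34 ± 0.30 after the combination (adjusted p = 0.00174). Stat2, a partner of Irf9 in the complex that recognises the ISRE, rose by 0.34 after anti-LTβR and 0.24 after the combination (adjusted p = 0.0018 and 0.00958), with 8 and 6 of 8 tumors above every untreated tumor. Irf9, the DNA-binding subunit of that complex, was lower in combination than in untreated tumors (-0.18, adjusted p = 0.0284) and differed by 0.03 ± 0.05 after anti-LTβR (adjusted p = 0.683). Irf7, which amplifies type I interferon production, was not called in any comparison. Sting1 and Cgas, the receptor and the sensor, were higher after the combination, by 0.26 and 0.48 (adjusted p = 0.0108 and 0.00152). The mean of Cgas was 1.34 times the untreated mean after anti-LTβR and 1.39 times after the combination, and that of Sting1 1.14 and 1.20 times.

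A list of 18 genes known mainly as targets of interferon γ gives the scale of that arm. It holds guanylate-binding proteins, immunity-related GTPases, Ciita, Cxcl9 and Ido1. After anti-LTβR 15 of the 18 rose, with a median difference of 0.57, and after the combination 11 rose, with a median of 0.39, where 7.21% and 19.6% of all genes were higher. None was called after ADU-S100, although 17 of the 18 differences were above 0 and the median was 0.27. Of the 18, 6 had an unadjusted p below 0.05, as had 14.5% of all genes tested. In the combination relative to anti-LTβR 4 were lower and none higher, where 15.3% of all genes were lower, and 6 interactions were negative, where 11% of all were. Cxcl9, a chemokine for T cells, had 2581, 3134 and 6062 without treatment, 2510.2, 3656 and 5446 with ADU-S100, 3435, 5342 and 7071 with anti-LTβR and 4497, 6786 and 9135 after both and rose by 0.57 and 0.91 in the groups that received the antibody (adjusted p = 0.0383 and 0.000615). The corresponding medians of the 42 antiviral genes were 0.22, 0.07 and 0.05. The difference between these lists was not tested, and the comparisons with untreated tumors share those tumors.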

How the data were processed

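Bulk poly(A) RNA-seq of 32 individual tumors in 4 groups of 8 was analysed. Groups came from the sample labels. A further 20 libraries (15 with contradicting labels, 5 labelled combination) entered no comparison. The table the authors deposited holds a signal for each gene and library, namely estimated reads divided by a size factor per library, so the planned limma test on log2 values was used. The larger deposited table of 52 libraries holds a signal of the same kind, from which whole reads were recovered (100% of values within 0.05 reads of a whole number, checked below a value of 2000). The sources name cutadapt 1.9, HISAT2, StringTie, STAR, Partek, DESeq2 and edgeR, and the build mm39. Which tools made each table was not settled. Another deposited file holds the authors' own gene set enrichment results and was not used. Per-sample columns left unused number 0.

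limma 3.58.1 (R 4.3.3, trend) was fitted to log2(value + 1), a pseudocount of 1, with filterByExpr of edgeR 4.0.16 (count minimum of 10). Only the groups compared entered each fit, and all 32 libraries the interaction. P-values are two-sided and adjusted over all genes by the Benjamini-Hochberg method, with an FDR of 0.05 and, where named, a 2-fold change. Adding 1 before the logarithm slightly understates the differences of low genes. Alternatives were a pseudocount of 0.5, other filters, a joint fit, a replicate block, TMM rescaling, edgeR and DESeq2 1.42.0 on recovered reads, and only libraries above 14000000 reads. Leaving out each tumor in turn, using only the libraries without Ifnl2 reads, and adding the presence of Ifnl2 reads as a term were chosen after seeing the data. The tests were checked on counts drawn with known changes.

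The 42 genes and the other lists were chosen with earlier results of these data known. Of the 42, those given in full are, in each role, the 2 with the smallest and the 1 with the largest adjusted p in combination against untreated tumors, up to 5 with the smallest adjusted p among those called in combination against anti-LTβR or for the interaction, and those lower in combination than in untreated tumors. Values for Isg15 and for tumors that stand apart were added after seeing the data. Promoters of genes given in full that hold the ISRE core were eligible for printing. Those printed, chosen after the matches were seen, have the core upstream of the start, 1 per role, by the smallest adjusted p in anti-LTβR against untreated tumors. No pair of the 32 libraries was identical. The labels give separate tumors. A legend of the study says both that 1 experiment was done and that 2 independent experiments were combined. The labels give the 32 tumors the same experiment name and the further 20 libraries another, and no label splits the 32. Part of the genotype of the injected cells and the values of 1 signalling gene are not reported here.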

Additional observations from a re-analysis of the deposited data

Results flagged for a closer look

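A single tumor stood far from the other 7 of its group, by Dixon's criterion for 8 values, in 7 of the 88 groups of values that were examined for the 22 genes given in full. Chance alone flags about 1 in 20. Combination tumor 2 was the high value in 5 of them, with normalized counts of 1348 for Oas3, 5446 for Oasl2, 1904 for Ifit2, 3777 for Dtx3l and 3433 for Xaf1. The next highest combination tumors had 886, 4254, 1318, 2855 and 2634. The others were Mx2 in ADU-S100 tumor 5, with 171, and Samd9l in anti-LTβR tumor 4, with 2730.3.

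The effect of anti-LTβR differed with and without ADU-S100 for 9 of the 42 genes by the limma interaction test (adjusted p below 0.05, over 32 tumors). Over all 17649 genes tested, 7.33% had a positive and 11% a negative interaction. The interaction on the log2 scale was -0.34 for Ddx58, -0.32 for Eif2ak2, -0.25 for Trim25, -0.57 for Samd9l, -0.53 for Herc6, -0.45 for Dtx3l, -0.43 for Ifi203, -0.29 for Ifi204 and -0.46 for Xaf1.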

How the results depend on the processing

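Of the 48 called differences of single genes, 39 could be checked in the joint fit, which has no interaction, 47 on recovered reads, where Ifitm2 was not analysed, and 48 under each other pseudocount, filter, scaling, block or depth limit. None of the values obtained changed sign, 414 kept their side of the FDR and 101 no longer passed it, 25 of them with only libraries above 14000000 reads. The number of called genes in combination against untreated tumors (9) became 5 without a filter and 4 with only the deep libraries. In combination against anti-LTβR (10) it became 4 without a filter, 18 with the replicate block, 4 after TMM rescaling, 4 in edgeR with TMM or RLE, 5 in edgeR with library totals and 1 with only the deep libraries. In combination against ADU-S100 (3) it became 6 in the joint fit and 5 after TMM rescaling, in edgeR with TMM or RLE and in DESeq2. Anti-LTβR against ADU-S100 (4) gave 0 in the joint fit and 0 with the replicate block, ADU-S100 against untreated (0) gave 1 in DESeq2, and the interaction (9) gave 5 in edgeR with RLE and 3 with only the deep libraries. Fits of the deep libraries held fewer tumors, and their share of all genes called was not determined. With the libraries that lack Ifnl2 alone, the counts were 0, 8, 0, 1, 0 and 1 for combination against untreated, anti-LTβR against untreated, combination against anti-LTβR, combination against ADU-S100, anti-LTβR against ADU-S100 and the interaction. Those fits held fewer tumors and called 21.6%, 2.68%, 10.6%, 24.5%, 0.18% and 3.75% of all genes, and the cause was not tested. Leaving out 1 tumor gave 4 to 9 in combination against untreated, 11 to 15 in anti-LTβR against untreated, 0 in ADU-S100 against untreated, 4 to 27 in combination against anti-LTβR and 5 to 13 for the interaction. In the same order, those fits called 38.4% to 43.0%, 9.40% to 17.4%, 0 to 0.036%, 20.3% to 29.5% and 14.2% to 20.9% of all genes. The replicate numbers were not taken to pair the tumors. Same-numbered tumors correlated by -0.09 to 0.19 on average, not all above 0.1 in any comparison, and in 0 to 3 of 8 cases best with their own number, although Ifnl2 reads were found in the same numbers in untreated and ADU-S100 tumors, and in anti-LTβR and combination tumors. The block moved no other count by more than 1.5 times. The lowest value of any of the 42 genes in a tumor was 78.5 normalized counts, for Mx2.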

Other observations

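In the 20 libraries outside the comparisons, Ifnl2 had no reads in any of the 5 labelled combination or of the 15 without a settled group, in the larger deposited table, which was normalized over all 52 libraries. Isg15 ranged from 1434 to 7442 normalized counts in the 15 libraries (median 1892) and from 1494 to 4794 in the 5, while the 32 tumors of the comparisons ranged from 722 to 2351 in the same table. Oasl2 ranged from 2032 to 4605 and from 1940.1 to 4242 in these libraries, against 3040.4 to 5514 in the 32 tumors.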
